A study of Mus musculus with 6 samples.

Results

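The cytosolic ribosomal protein genes were examined in mouse bone marrow-derived macrophages given interferon-γ (IFN-γ), the T and NK cell cytokine that activates macrophages, against untreated macrophages. Genes were taken by name, as Rpl or Rps with a number and at most a short suffix, together with Rplp0, Rplp1, Rplp2 and Rpsa, and were kept with at least 10 counts in at least 3 of the 6 libraries. This gave 83 of the 36706 listed entries, 51 named for the large and 32 for the small ribosomal subunit. There were 3 libraries of WT macrophages at 3 h of IFN-γ and 3 libraries of untreated WT macrophages labelled with the same 3 h. Both groups were grown from bone marrow cells with 20 ng/mL M-CSF, the growth factor that drives macrophage differentiation, and poly(A) RNA-seq counts per gene were deposited for each library. The sources used here give neither the dose of IFN-γ nor the number of animals. Nothing states that the replicates were separate cultures or animals, so the spread between them may be technical. In these bulk samples, fewer cells of a type and less RNA per cell cannot be told apart.

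Each cytosolic ribosome is built from ribosomal RNA and 1 copy of most ribosomal proteins, so the mRNAs of these genes are among the most abundant in a growing cell and are held at similar levels. Most vertebrate ribosomal protein mRNAs start with a C followed by a run of pyrimidines, the terminal oligopyrimidine or TOP motif, through which the mTOR kinase and the RNA-binding protein Larp1 control their translation. In macrophages, IFN-γ induces interferon-response genes, and it has been linked to changes in translation, which mRNA counts do not measure. The windows shown here run from 10 bases before to 20 bases after the annotated start in RefSeq on GRCm38.p6, with the pyrimidine run near the start in capitals. These windows each hold a run that begins near the annotated first base, not at it. They were chosen for genes that return in the results: an mTOR-pathway target (Rps6), a stalk protein (Rplp2), the human GAIT complex member (Rpl13a), a pair of genes with paralogs (Rps27, Rpl22l1) and the gene with the fewest counts (Rpl28). Their positions were chr4:86857348-86857377 (minus) for Rps6, chr7:141447641-141447670 (plus) for Rplp2, chr7:45128726-45128755 (minus) for Rpl13a, chr3:90213629-90213658 (minus) for Rps27, chr3:28805498-28805527 (plus) for Rpl22l1 and chr7:4792955-4792984 (plus) for Rpl28.
Rps6: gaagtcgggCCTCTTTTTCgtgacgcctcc
Rplp2: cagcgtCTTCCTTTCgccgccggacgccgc
Rpl13a: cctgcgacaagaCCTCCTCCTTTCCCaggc
Rps27: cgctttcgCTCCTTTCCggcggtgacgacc
Rpl22l1: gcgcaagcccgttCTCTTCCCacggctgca
Rpl28: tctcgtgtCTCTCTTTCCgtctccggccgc

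In the RefSeq promoter table, 62 of the 83 genes had 73 entries between them. A C followed by at least 4 pyrimidines began within 20 bases of the annotated start, on the sense strand, in 53 of the 73 entries (72.6%), against 47.5% of all 32851 entries. The longest such run began at the annotated first base itself, where a TOP motif would lie, in only 2 of these 53. The ETS-family motif CCGGAAG was found on either strand of the 300-base promoter in 27 entries (37.0%), against 8.86% of all entries. The YY1 motif AAGATGG was found in 12 entries (16.4%) and TATAAA in 8 (11.0%), against 6.34% and 13.6% of all entries. The reverse complement of the ETS motif begins with pyrimidines, so that motif and a TOP-like run can cover the same bases, and a match describes letters only.

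Total counts were 32628170 to 34233607 in the IFN-γ libraries and 28133342 to 31173432 in the untreated libraries. All 7 macrophage markers fixed for the check were listed, and their summed level was 19220 to 20200 CPM (each library's count scaled by its total) in IFN-γ libraries and 20410 to 21520 CPM in untreated libraries. Markers of T cells summed to at most 2.13 CPM in IFN-γ and 2.35 CPM in untreated libraries, with Cd3e at 0 in all, and B cell, erythroid and fibroblast markers each stayed under 1 CPM. Neutrophil markers summed to 111 to 123 CPM in IFN-γ and 74.3 to 94.8 CPM in untreated libraries, and dendritic cell markers to 3.71 to 4.56 and 1.28 to 1.81 CPM. Their part in the ribosomal protein results was not tested.

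The 83 genes together took 4.28%, 4.84% and 4.85% of all counts in the IFN-γ libraries and 4.76%, 6.19% and 5.07% in the untreated libraries, in the order of replicates 1 to 3. On the scale per length (TPM, as deposited), they took 11.5%, 12.4% and 12.4% in IFN-γ libraries and 12.4%, 14.9% and 13.1% in untreated libraries. Untreated replicate 2 held the highest share on both scales, and the groups overlapped on both. Of the 83 genes, 56 averaged over 1000 TPM, 24 lay between 100 and 1000 TPM and 3 lay under 100 TPM, with a median of 1340 TPM.

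The most abundant per length was Rpl41, the smallest ribosomal protein, at 4418, 5309 and 5399 TPM in IFN-γ libraries and 5206, 6526 and 5662 TPM in untreated libraries. Rplp1, an acidic protein of the ribosomal stalk, followed at 4828, 5008 and 4824 TPM in IFN-γ libraries and 4921, 6157 and 5338 TPM in untreated libraries. The third was Rps29, a zinc-binding small-subunit protein, at a mean of 5050 TPM over the 6 libraries. All of these were highest in untreated replicate 2.

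At the low end stood Rpl39l, the paralog of Rpl39 known from mouse testis, with a mean of 2.81 TPM, Rpl28 with 4.15 TPM and Rpl32l with 4.73 TPM. They also lay nearest to the count minimum. Rpl28 had 28, 30 and 36 counts in IFN-γ libraries and 29, 35 and 27 in untreated libraries. Rpl32l had 71, 32 and 36 counts in IFN-γ libraries and 30, 44 and 40 in untreated libraries, and Rpl39l had 34, 45 and 27 in IFN-γ and 33, 38 and 40 in untreated libraries. Just outside the minimum were Rpl3l, a muscle paralog of Rpl3, with 2, 9 and 4 counts in IFN-γ and 7, 4 and 6 in untreated libraries, and Rpl10l, a testis paralog of Rpl10, with 0 in every library. A count of 0 with a floor of 3 counts allows up to 0.107 CPM in the shallowest library, for counting error only.

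Rpl28 is a core protein of the large subunit with far fewer counts than its peers, and it lies under an entry on the opposite strand. Of the exon bases of Rpl28, 89.3% were covered by the opposite-strand entry LOC118567469, which averaged 32.3 counts per library, while Rpl28 averaged 30.8. How reads were counted, by strand and where entries overlap, is not given in the sources used here, and the part of the overlap in this low value was not tested. The level of Rpl28 is therefore uncertain.

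Many ribosomal protein genes have processed pseudogenes, so reads can match several places. All 83 genes were matched to GENCODE M21 transcripts, and in 68 of them at least 10% of the distinct 50-base stretches also occurred in a transcript of another gene. The share reached at least 50% in 8 genes, Rpl35 (84.0%) first, and was 0% in Rpl39l. The 16 listed entries named as ribosomal protein pseudogenes held 0.0523% as many counts as the 83 genes. Counts of the genes with high sharing are uncertain where such reads were dropped or split.

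Ribosomal protein mRNAs did not pass the test in either direction at 3 h of IFN-γ. All 83 passed the filter on low counts and entered the edgeR quasi-likelihood test with 12968 genes in all, and 0 had an adjusted p under 0.05, against 36.4% of all genes tested (19.6% higher and 16.8% lower). At an unadjusted p under 0.05 the count was 0 of 83, against 45.3% of all genes, and it was also 0 with DESeq2 and with limma-voom, adjusted or unadjusted, which called 34.7% and 36.3% of all genes at the adjusted threshold. No member had IFN-γ libraries entirely above or below the untreated libraries, against 50.1% of all genes tested. The smallest adjusted p was 0.39, for Rpl7a. The log2 fold changes ran from −0.20 (Rpl29) to 0.27 (Rpl32l), with 62 below 0 and 21 above, and a median of −0.03 against −0.01 for all genes tested. The median was −0.04 over the 51 large-subunit genes and −0.03 over the 32 small-subunit genes.

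The 95% confidence intervals bound the size of a change that was not detected. They lay within a 1.5-fold change either way for 78 of the 83 genes and within a 1.2-fold change for 10. The widest ran from −0.45 to 0.98 on the log2 scale (Rpl32l), and that of Rpl17 ran from −0.40 to 0.75. The standard error was larger in these genes than in general, with a median of 0.12 against 0.095 over all genes tested, although 75 of the 83 averaged between 5000 and 50000 counts.

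**Figure D1:**
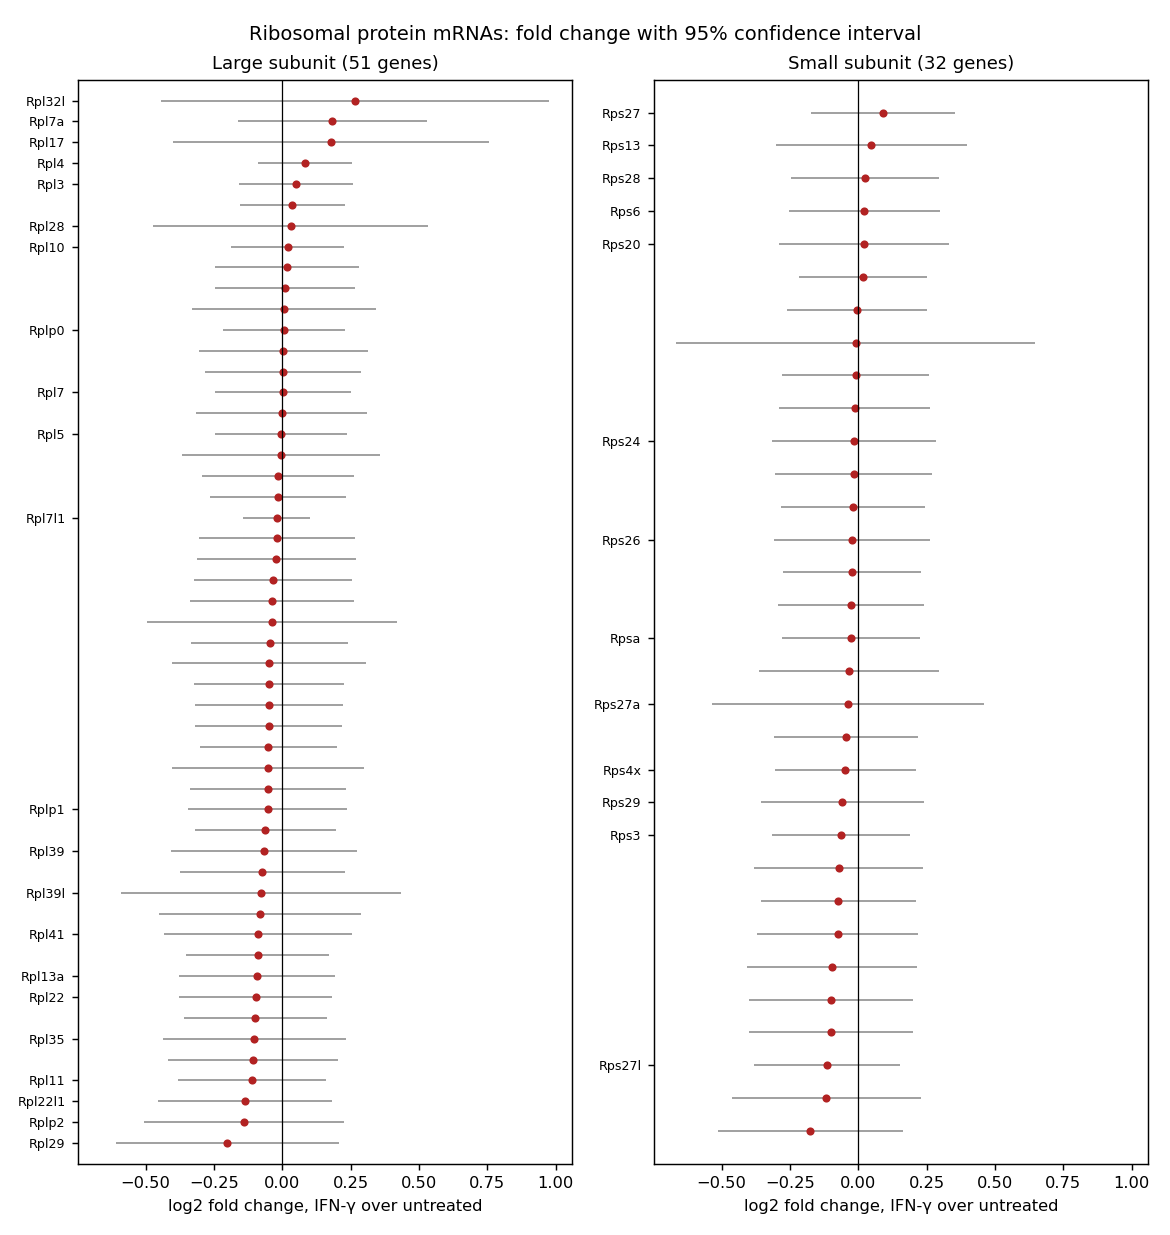
Log2 fold change (IFN-γ over untreated, x axis) of the 83 ribosomal protein genes, by subunit and ordered by size, with the genes described in the text labelled; points are edgeR estimates and lines their 95% confidence intervals, 3 libraries a group. Every interval crosses 0, and the estimates run from −0.20 (Rpl29) to 0.27 (Rpl32l).

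Genes of the ribosomal stalk, which recruits translation factors, showed levels that overlapped between the groups. Rplp0, the stalk base, had 1336, 1527 and 1534 CPM in IFN-γ libraries and 1342, 1647 and 1389 CPM in untreated libraries, where CPM are counts scaled by library size and TMM factor. The lowest and the highest of these values were IFN-γ replicate 1 and untreated replicate 2. The log2 fold change was 0.01 ± 0.10 (SE; adjusted p = 0.97, edgeR). Rplp2 had 449, 492 and 451 CPM in IFN-γ libraries and 426, 664 and 445 CPM in untreated libraries, with a log2 fold change of −0.14 ± 0.16 (SE; adjusted p = 0.53). Untreated replicate 2 was far above the other 5 libraries, among which the IFN-γ libraries lay above both untreated ones. Rplp1 had a log2 fold change of −0.05 ± 0.13 (SE; adjusted p = 0.78).

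Rps6, the small-subunit protein phosphorylated by S6 kinases, had 675, 780 and 792 CPM in IFN-γ libraries and 654, 878 and 682 CPM in untreated libraries. Both the lowest and the highest value were in untreated libraries, and the log2 fold change was 0.02 ± 0.12 (SE; adjusted p = 0.91). Rpl13a, which in human monocytic cells leaves the ribosome after IFN-γ to join the GAIT complex that silences selected mRNAs, had 652, 794 and 792 CPM in IFN-γ libraries. In untreated libraries Rpl13a had 705, 939 and 743 CPM, and its log2 fold change was −0.09 ± 0.12 (SE; adjusted p = 0.61). The lowest value was IFN-γ replicate 1 and the highest untreated replicate 2, as for Rplp0.

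Rpl5 and Rpl11 bind the p53 inhibitor Mdm2 when ribosome assembly is disturbed. Rpl5 averaged 752 ± 64.1 CPM in IFN-γ libraries and 755 ± 96.9 CPM in untreated libraries (SD, n = 3 each). Rpl11 averaged 664 ± 54.8 CPM in IFN-γ libraries and 717 ± 114 CPM in untreated libraries (SD, n = 3 each), with a log2 fold change of −0.11 ± 0.12 (SE; adjusted p = 0.51). Neither difference exceeded the spread between libraries. Rps3, which lines the mRNA entry of the small subunit, averaged 922 ± 60.3 CPM in IFN-γ and 964 ± 146 CPM in untreated libraries (SD, n = 3 each). Rpsa, also known as the laminin receptor, averaged 1402 ± 111 CPM in IFN-γ and 1428 ± 205 CPM in untreated libraries (SD, n = 3 each). The X-linked Rps4x and Rpl3, near the peptidyl transferase centre, had log2 fold changes of −0.05 ± 0.11 and 0.05 ± 0.09 (SE; adjusted p = 0.78 and 0.71). In each of these genes the standard deviation was larger in the untreated libraries.

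The 83 genes moved together from library to library. Against the mean of the 6 libraries, their median log2 deviation was −0.15, 0.05 and 0.06 in IFN-γ replicates 1 to 3 and −0.15, 0.28 and −0.09 in untreated replicates 1 to 3. Untreated replicate 2 was the highest library for 77 of the 83 genes, and IFN-γ replicate 1 or untreated replicate 1 was the lowest for 78 (40 and 38). The 2 libraries with the lowest medians thus came from different groups, and the library with the highest median was an untreated one.

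**Figure D2:**
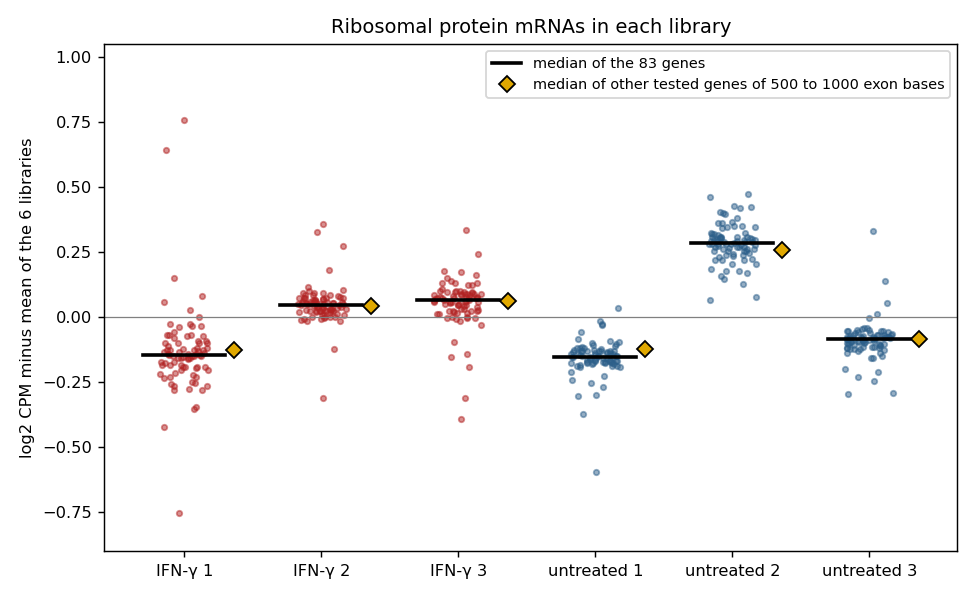
Log2 CPM of each of the 83 ribosomal protein genes minus its mean over the 6 libraries (y axis), by library, with IFN-γ libraries on the left; lines are the medians of the 83 genes and diamonds the medians of the 597 other tested genes with 500 to 1000 exon bases. The members' medians run from −0.15 to 0.28, and the diamonds lie close to them in every library.

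The same movement was present in other short transcripts. The members have a median exon length of 833 bases (390 to 5136). Among the 597 other tested genes of 500 to 1000 bases, the median deviation was −0.13, 0.04 and 0.06 in IFN-γ replicates 1 to 3 and −0.13, 0.26 and −0.08 in untreated replicates 1 to 3. The 42 members of that length had −0.14, 0.04 and 0.06 in IFN-γ replicates and −0.15, 0.29 and −0.09 in untreated replicates. The short members thus lay within 0.03 log2 units of equally short genes in every library.

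Over all genes tested, the log2 deviation per doubling of exon length was 0.04, −0.02 and −0.02 in IFN-γ replicates 1 to 3 and 0.07, −0.09 and 0.03 in untreated replicates 1 to 3. The steepest slope was in untreated replicate 2, where genes under 500 bases had a median deviation of 0.30 and genes over 8000 bases one of −0.19. In the reverse direction, untreated replicate 1 had −0.14 under 500 bases and 0.11 over 8000 bases. Slopes of both signs occurred within each group. The median log2 fold change of all tested genes of 500 to 1000 bases was −0.04, and that of the 42 members of that length was also −0.04. Across the 83 members, exon length and the fold change had Pearson's r = 0.08, a description over genes that share the same libraries.

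**Figure D3:**
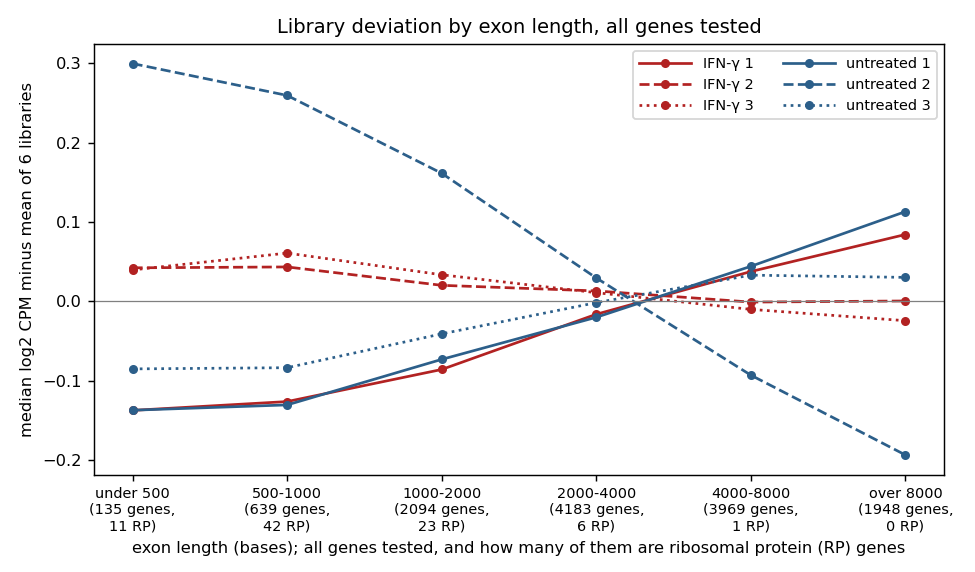
Median log2 CPM minus the mean of the 6 libraries (y axis) for all tested genes in 6 bins of exon length (x axis, bases), 1 line per library, IFN-γ in red and untreated in blue; the number of genes and of ribosomal protein (RP) genes is under each bin. Untreated replicate 2 falls from 0.30 in the shortest bin to −0.19 in the longest, and 53 of the 83 members lie in the 2 shortest bins.

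With the length trend of each library removed by a smooth curve over all genes tested, the median standard error of the members was 0.053, against 0.073 for all genes. Rpl4, a large-subunit protein with a long loop into the exit tunnel, then passed the test and was the only 1 of 83 to do so, against 46% of all genes (25.8% higher and 20.2% lower). Rpl4 had 1116, 1194 and 1204 CPM in IFN-γ libraries and 1038, 1198 and 1079 CPM in untreated libraries before the removal. The groups overlapped through untreated replicate 2. Its log2 fold change was 0.13 ± 0.04 (SE; adjusted p = 0.021) with the trend removed and 0.08 ± 0.07 (SE; adjusted p = 0.42) without. The count at an unadjusted p under 0.05 was 3 of 83. The members' median log2 fold change was 0.02 against 0.01 for all genes, and the 95% interval lay within a 1.2-fold change for 66 of the 83 genes and within 1.5-fold for 81.

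Without untreated replicate 2, 6 members rose and 0 fell, against 45.2% of all genes called (24% higher and 21.1% lower). They were Rpl7a (0.36), Rps13 (0.27), Rps27 (0.24), Rps20 (0.20), Rps28 (0.18) and Rps26 (0.15), with log2 fold changes in brackets and adjusted p from 0.0052 to 0.049. Of the 83 log2 fold changes, 80 were then above 0, with a median of 0.11 against −0.00204 for all genes. With the length trend removed as well, 7 members rose (Rpl7a, Rps20, Rps13, Rps24, Rps6, Rpl4 and Rpl3), against 28.2% of all genes higher, and the median was 0.05. Rps13, a small-subunit protein, had 371, 353 and 375 CPM in IFN-γ libraries and 289, 454 and 320 CPM in untreated libraries. Its IFN-γ values lay above untreated replicates 1 and 3 and below untreated replicate 2. Rpl7a had 480, 522 and 392 CPM in IFN-γ libraries and 362, 502 and 364 CPM in untreated libraries, with untreated replicate 2 inside the range of the IFN-γ libraries.

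Scaling moved the zero line for all genes alike. With total counts in place of TMM, the log2 fold change of all genes shifted by −0.17 and the members' median was −0.20, while the median of all genes was −0.18. A single member, the Rpl7 paralog Rpl7l1, was called lower under that scaling, at −0.19 ± 0.05 (SE; adjusted p = 0.014), against 12.8% of all genes called higher and 34.9% called lower. Rpl7l1 had −0.02 ± 0.05 (SE; adjusted p = 0.80) under TMM. It was also the 1 gene called lower with upper quartile scaling, against 31.6% of all genes called lower. A straight-line length trend left 9 members lower, against 29.5% of all genes, and a block for the replicate number 1 lower, against 17.9%. A length trend fitted without the members, and the trend with the block, each left 1 member higher, against 25.9% and 26.2% of all genes. The members' median thus stayed below 0 under every scaling, which changed its size only. It was above 0 with the smooth length trend removed, without untreated replicate 2 and without IFN-γ replicate 1 (0.01). With the straight-line trend it was −0.10. Relative to the median of all genes, the members' median stayed between −0.10 and 0.11 under every setting run.

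**Figure D4:**
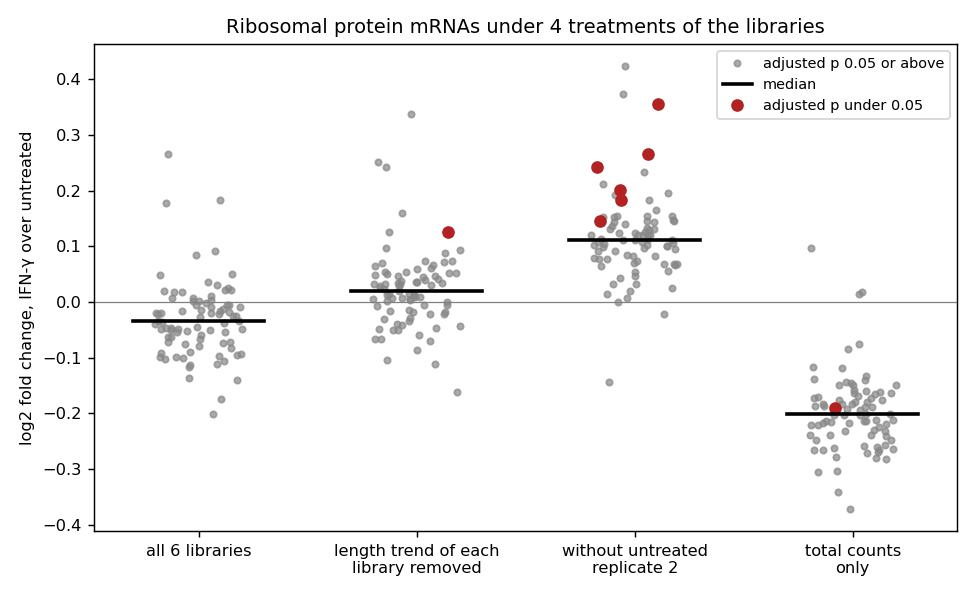
Log2 fold change (IFN-γ over untreated, y axis) of the 83 genes under 4 treatments of the libraries (x axis); points are genes, large red points those with an adjusted p under 0.05 (edgeR), and lines the medians. The medians are −0.03, 0.02, 0.11 and −0.20, and the calls number 0, 1, 6 and 1.

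After the shared movement of each library was taken out, most members varied little. Of the 80 members with at least 1000 counts on average, 64 stayed within 0.15 log2 units of the members' median in every library. Genes farther than 0.3 from that median in a library were picked out after the values were seen, and are given as values with no test. Rpl17, of the large subunit, had 399, 235 and 206 CPM in IFN-γ libraries and 224, 311 and 208 CPM in untreated libraries. Its value in IFN-γ replicate 1 lay 0.79 above the members' median of that library. The ubiquitin fusion gene Rps27a had 786, 813 and 840 CPM in IFN-γ libraries and 533, 1082 and 887 CPM in untreated libraries, and lay 0.44 below the members' median in untreated replicate 1.

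Rpl29 had 151, 209 and 214 CPM in IFN-γ libraries and 168, 238 and 255 CPM in untreated libraries, and lay 0.42 above the members' median in untreated replicate 3. None of these 3 departures was shared by the other replicates of its group. Rpl32l and Rpl39l also passed that bound, with under 100 counts. The shares of 50-base stretches found in other genes were 44.7% for Rpl17, 26.3% for Rps27a and 35.5% for Rpl29, against a median of 24.0% over the 83 genes, and the part of that sharing was not tested.

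**Figure D5:**
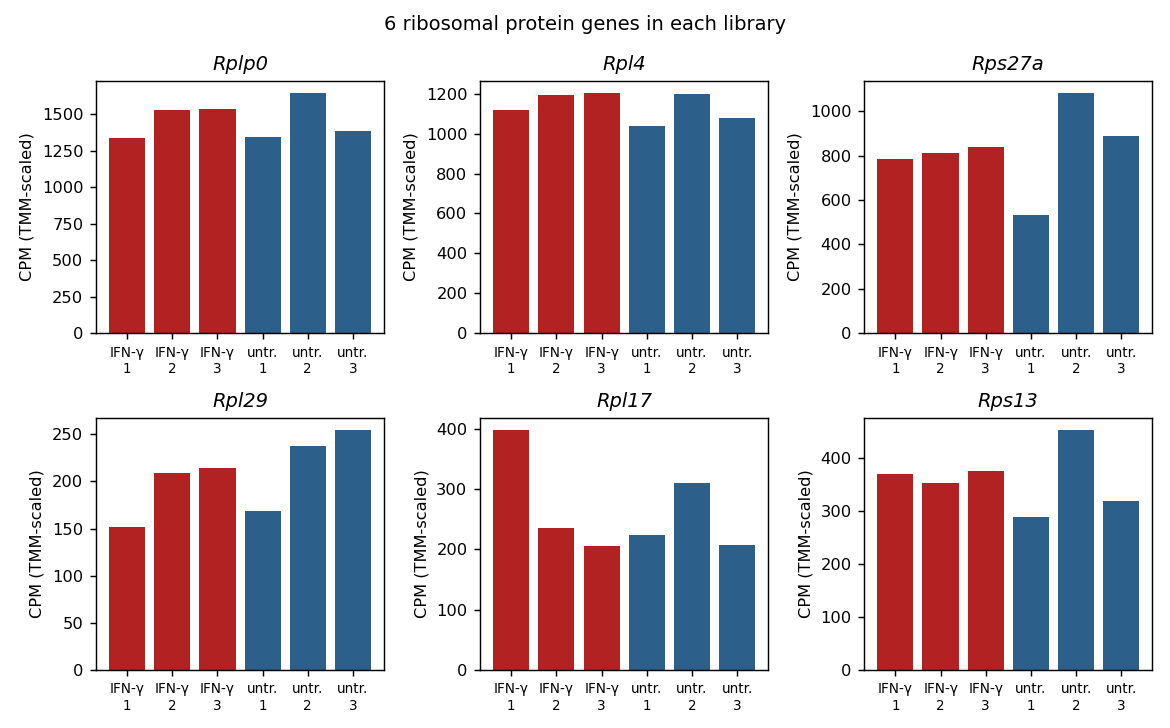
CPM after TMM scaling (y axis, from 0) of 6 ribosomal protein genes in each library (x axis), IFN-γ in red on the left and untreated in blue; each bar is 1 library, so there is no error bar. Rplp0 and Rpl4 vary little, and Rps13 is highest in untreated replicate 2. Rps27a and Rpl17 each have a library that departs from the others, such as 399 CPM of Rpl17 in IFN-γ replicate 1. Rpl29 is highest in untreated replicate 3 (255 CPM), near untreated replicate 2 (238 CPM). It stands apart there only against the members' median of that library, which is not plotted.

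Paralog ratios are taken within a library, per base of exon, so scaling between libraries cancels. The length trend of a library does not cancel where the paired genes differ in exon length. Rps27l has 2748 bases and Rps27 575, and Rpl22l1 has 556 and Rpl22 2497. The part of that trend in the ratios was not tested. Of 8 paralog pairs, 4 had enough counts in both genes. The log2 ratio of Rps27l, a paralog induced by p53 in human cells, to Rps27 was −3.47, −3.24 and −3.16 in IFN-γ libraries and −3.04, −3.10 and −3.09 in untreated libraries. Every IFN-γ library lay below every untreated library, and the difference was −0.21 (exact two-sided permutation p = 0.1, the smallest that 3 against 3 allows, and 0.4 adjusted over 4 pairs), so the design cannot reach 0.05. The ratio of Rpl22l1 to Rpl22, which regulate each other's expression in mouse, averaged 0.23 ± 0.04 in IFN-γ and 0.26 ± 0.06 in untreated libraries (SD, n = 3 each; exact p = 0.6, adjusted 1). The Rpl7l1 to Rpl7 and Rpl39l to Rpl39 ratios differed by −0.02 and −0.06 (exact p = 1 and 0.8, adjusted 1 for both). Rpl39 exceeded Rpl39l 775-fold per base of exon, and on that scale Rpl22l1 exceeded Rpl22 in all 6 libraries. Not divided by length, Rpl22l1 averaged 84.3 CPM in IFN-γ and 92.7 CPM in untreated libraries. Rpl22 was higher there, at 324 and 347 CPM. Rpl3l and Rpl10l had too few counts beside Rpl3 and Rpl10.

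Of the cytosolic ribosomal protein genes that the name rule left out, 0 of 4 (Fau, Rpl36al and Rack1 among them) passed the edgeR test, with 0 at an unadjusted p under 0.05. Rack1, a scaffold on the small subunit, averaged 918 ± 55.4 CPM in IFN-γ and 909 ± 120 CPM in untreated libraries (SD, n = 3 each). Of 24 tested genes of translation factors and other TOP mRNAs, 2 (8.33%) rose and 1 (4.17%) fell, against 19.6% and 16.8% of all genes, with a median log2 fold change of 0.004 against −0.014 for all genes. Those that rose were the intermediate filament gene Vim (0.46 ± 0.07, SE; adjusted p = 0.0018) and the poly(A)-binding protein gene Pabpc1 (0.21 ± 0.06, SE; adjusted p = 0.020), and Pabpc4 fell by 0.18. Pabpc4 shares 54.8% of its 50-base stretches with another gene and is uncertain. Of the 24, 6 were higher and 2 lower with the length trend removed, against 25.8% and 20.2% of all genes. Without untreated replicate 2, 7 were higher and 2 lower, against 24% and 21.1% of all genes. With total counts 1 was higher and 8 lower, against 12.8% and 34.9% of all genes.

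Among 35 initiation and elongation factor genes, 4 (11.4%) rose and 1 (2.86%) fell, against 19.6% and 16.8% of all genes, with a median log2 fold change of 0.05. Eif1a, which prepares the small subunit for scanning, averaged 272 ± 15.6 CPM in IFN-γ and 191 ± 3.44 CPM in untreated libraries (SD, n = 3 each), a log2 fold change of 0.51 ± 0.06 (SE; adjusted p = 0.00031). Etf1, the release factor, rose by 0.31, and Eif6, which keeps the large subunit from joining too early, by 0.30 (adjusted p = 0.0017 and 0.037). Of the 35, 8 were higher and 2 lower with the length trend removed, against 25.8% and 20.2% of all genes. Without untreated replicate 2, 8 were higher and 1 lower, against 24% and 21.1% of all genes. With total counts 1 was higher and 9 lower, against 12.8% and 34.9% of all genes.

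Of 66 ribosome assembly genes, 2 (3.03%) rose and 19 (28.8%) fell, against 19.6% and 16.8% of all genes, with a median log2 fold change of −0.09. Rrp1b, a nucleolar assembly factor, averaged 17.8 ± 0.46 CPM in IFN-γ and 30.6 ± 2.77 CPM in untreated libraries (SD, n = 3 each; adjusted p = 0.00014, edgeR). Dkc1, the pseudouridine synthase of ribosomal RNA, averaged 29.8 ± 1.16 CPM in IFN-γ and 48.6 ± 0.64 CPM in untreated libraries (SD, n = 3 each), and its log2 value fell by 0.70 (adjusted p = 3.5e-05). Against that direction, Noc4l, a small-subunit assembly factor, averaged 59.3 ± 2.19 CPM in IFN-γ and 27.4 ± 1.22 CPM in untreated libraries (SD, n = 3 each), a log2 fold change of 1.12 (adjusted p = 3.5e-06). With the length trend removed, 5 rose and 24 fell, against 25.8% and 20.2% of all genes. Without untreated replicate 2, 3 rose and 21 fell, against 24% and 21.1% of all genes. With total counts 2 were higher and 45 lower, against 12.8% and 34.9% of all genes. Of 10 tested RNA polymerase I genes, which make ribosomal RNA, 0 rose and 2 (20%) fell, near the 16.8% of all genes that fell: Polr1e by 0.48 and Polr1b by 0.35 (adjusted p = 0.0032 and 0.041). The 10 genes had 1 higher and 4 lower with the length trend removed, against 25.8% and 20.2% of all genes. Without untreated replicate 2, 1 was higher and 3 lower, against 24% and 21.1% of all genes. With total counts 0 were higher and 6 lower, against 12.8% and 34.9% of all genes.

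Of 21 genes of mTOR signalling and TOP mRNA control, 1 (4.76%) rose and 6 (28.6%) fell, against 19.6% and 16.8% of all genes, with a median log2 fold change of −0.11. Larp1, the repressor that binds TOP mRNAs, had 294, 262 and 258 CPM in IFN-γ libraries and 176, 156 and 175 CPM in untreated libraries. All IFN-γ libraries lay above all untreated libraries, with a log2 fold change of 0.68 ± 0.08 (SE; adjusted p = 0.00022). Pdcd4, a translation inhibitor, and Deptor, an inhibitor of mTOR, fell by 0.73 and 0.72 (adjusted p = 0.0029 and 0.0024). The others that fell were Rptor (−0.46), Akt1s1 (−0.32), Myc (−0.28) and Tial1 (−0.23), with adjusted p from 0.0030 to 0.026 (edgeR). Of the 21, 3 were higher and 9 lower with the length trend removed, against 25.8% and 20.2% of all genes. Without untreated replicate 2, 1 was higher and 9 lower, against 24% and 21.1% of all genes. With total counts 1 was higher and 11 lower, against 12.8% and 34.9% of all genes.

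A list around the human GAIT complex had 6 listed genes: Rpl13a, Eprs, Syncrip, Gapdh and the kinases Dapk1 and Dapk3. Of these, 0 passed the edgeR test and 0 had an unadjusted p under 0.05, with a median log2 fold change of −0.01. Gapdh had 0.60 ± 0.45 (SE, adjusted p = 0.34 with edgeR), with 28.3 CPM in untreated replicate 3 and 111 to 151 CPM in the other libraries. With total counts 0 were higher and 1 lower (Syncrip), against 12.8% and 34.9% of all genes. The synthetase gene Eprs averaged 134 ± 10.3 CPM in IFN-γ and 134 ± 14.2 CPM in untreated libraries (SD, n = 3 each), and Rpl13a is described above. Of 4 genes that link ribosomal proteins to p53, 3 (75%) rose, against 19.6% of all genes: Cdkn1a, the p53 target and cell cycle inhibitor (1.51 ± 0.06), Mdm2 (1.07 ± 0.07) and Mdm4 (0.43 ± 0.13, SE; adjusted p = 0.030), while Trp53 had −0.02 ± 0.06. With total counts 2 of these 4 were higher and 1 lower, against 12.8% and 34.9% of all genes. Of 14 tested genes of ribosome quality control, 2 (14.3%) rose, Gtpbp2 (1.01) and Ascc3 (0.55), and 1 (7.14%) fell, Map3k20, by 0.23, against 19.6% and 16.8% of all genes. Of the 14, 3 were higher and 2 lower with the length trend removed, against 25.8% and 20.2% of all genes. Without untreated replicate 2, 4 were higher and 2 lower, against 24% and 21.1% of all genes. With total counts 2 were higher and 3 lower, against 12.8% and 34.9% of all genes. Among the list genes named here, Pabpc1, Pabpc4, Etf1, Eif6, Polr1b, Rptor, Akt1s1, Tial1, Mdm4 and Map3k20 lost their call under at least 1 alternative. Their highest adjusted p ran from 0.058 (Etf1) to 0.63 (Pabpc1, which had a log2 fold change of 0.04 with total counts). Beside these, the Mdm2-binding Rpl5 and Rpl11 and the other ribosomal protein mRNAs did not pass the test. Binding of Larp1 to these mRNAs was not measured.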

How the data were processed

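Per the labels' protocols, RNA was taken up in Trizol and made into stranded mRNA libraries (KAPA); HISAT2 and mm10 are named in the submitters' processing notes, with no version. The deposited counts are whole numbers per gene, not normalized, per the file headers. The deposited TPM values were recomputed from counts and length and agreed to within 7.3e-11. The FPKM values, as deposited by the authors, were normalized for gene length and library size before deposit, per their name. The FPKM values were not recomputed. Table coordinates matched GRCm38.p6 for 1.70% of shared symbols, so the tables' build is unnamed and none is printed. Counts were tested with edgeR 4.0.16 in R 4.3.3: filterByExpr (minimum count 10, minimum total 15), TMM, glmQLFit and glmQLFTest, two-sided, Benjamini-Hochberg over 12968 genes, threshold 0.05. The length trend was a lowess curve (span 0.5) of each library's log2 deviation on exon length, used as an offset. DESeq2 1.42.0 and limma 3.58.1 were alternatives. Scripts were tested on simulated data. The ± values are SDs or fitted standard errors; floors of 3 counts cover counting error only. Members and lists were chosen with earlier results of these data known. Named genes were the stalk, Rps6, Rpl13a, Rpl5, Rpl11, Rps3, Rpsa, Rps4x, Rpl3, paralog pairs, the most and least abundant members, those next to the count minimum, and up to 3 called genes a list. Other members and list genes were named after their values were seen. Every replicate pair differed by more than counting noise (chi-square over its degrees of freedom, 1.97 to 74.4). Sequences are from RefSeq (GRCm38.p6). Some items are not reported here.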

Additional observations from a re-analysis of the deposited data

How the results depend on the processing

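The count of members past the threshold was 0 under 13 of 22 alternatives. These included DESeq2, limma-voom, RLE scaling, robust dispersion, GC trend removal, no filter and added pseudogene counts. A filter of 5 CPM tested 80 of the members. The added pseudogene entries held 0.0523% as many counts as the members, so that setting could hardly differ. Other genes that share sequence with the members were not added. Members called higher numbered 1 with the length trend removed, 1 with a trend fitted without the members, 1 with the trend removed and the replicate block, and 7 with the trend removed and untreated replicate 2 left out. Members called lower numbered 1 with total counts, 1 with upper quartile scaling and 9 with a straight-line length trend, where the median of all genes shifted by −0.07; the cause was not tested. Leaving out each library gave 0 to 6 members higher and 0 lower, and the members' median log2 fold change ran from −0.117 (without untreated replicate 1) to 0.112 (without untreated replicate 2). The estimate for Rps26, which had no call at −0.02 with all libraries, changed sign and gained a call: leaving out 1 library gave −0.11 (without untreated replicate 1) to 0.15 (without untreated replicate 2, adjusted p = 0.049). Of 811 results of 37 named members under alternatives, 791 kept their direction and their side of the threshold, or changed sign without a call, and 19 gained a call.

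Whether the replicate numbers pair the libraries was not settled: same-numbered deviations correlated at 0.31, 0.14 and −0.07. IFN-γ replicates 1 and 2 correlated best with the untreated replicate of the same number, and IFN-γ replicate 3 with untreated replicate 2 (0.24). These deviations also carry the length trend of each library, so they cannot tell whether libraries were paired. With the replicate block, 1 member was lower (Rpl29, −0.20, adjusted p = 0.034), 0 were higher, and the median was −0.02.

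Of the 83 genes, 80 averaged at least 1000 counts, so counting error is small for them beside the spread between libraries. It is not for Rpl28, Rpl32l and Rpl39l, with under 100 counts.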
